A study of Mus musculus with 12 samples.

Results

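The EGF receptor family and its ligands were followed as 10 genes chosen by symbol, of 24956 gene symbols measured: the receptors Egfr, Erbb2 and Erbb3, the adaptor Grb7, and the ligands Areg, Ereg, Hbegf, Tgfa, Btc and Epgn. They were measured in 12 tumours of PDA.69, a pancreatic ductal adenocarcinoma line derived from KPC mice, a genetic model of this cancer, and labelled Tcelllow. Of these tumours 6 grew in Alb-Cre+/+ STAT3f/f hosts and 6 in WT hosts. In Alb-Cre+/+ STAT3f/f hosts the albumin promoter drives Cre in hepatocytes, so that floxed Stat3 is removed from the liver cells of the host, while both groups received the same tumour line. All tumours are thus of 1 line, and host age, host sex and the site of growth are not given in the labels. RNA scraped from fixed, paraffin-embedded sections gave 3'-end sequencing libraries with 5691707 to 8085609 counts each. Each library reads a mixture of tumour and host cells, and Stat3 in it does not check the deletion, which is in the liver: Stat3 averaged 258 ± 34.0 CPM in Alb-Cre+/+ STAT3f/f and 257 ± 15.5 CPM in WT tumours (SD, n = 6 each). The comparison asks how tumours differ between hosts that lose hepatocyte Stat3 and WT hosts. The control hosts are labelled only WT, so effects of Cre or of the floxed allele cannot be told apart from those of Stat3 loss. Whether the 12 tumours came from 12 mice is not given, so the p-values speak of the spread among these tumours, which may be technical.

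The ErbB receptors are tyrosine kinases at the cell surface that pair on binding a ligand and signal through the Ras to ERK and phosphoinositide 3-kinase routes. EGFR binds the EGF-type ligands, ERBB2 binds no known ligand and serves as the preferred partner of the others, and ERBB3 has little kinase activity of its own and recruits phosphoinositide 3-kinase when its partner phosphorylates it. The ligands are made as membrane proteins and are released by metalloproteases such as ADAM17. In the pancreas, EGFR signalling takes part in the change of acinar cells to a duct-like state.

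Several members are neighbours in the genome (GRCm38, the assembly also named mm10, GENCODE M21). Erbb2 (chr11:98412470-98437716, plus strand) and Grb7 (chr11:98446394-98455373, plus strand) lie 8677 bases apart, with Mien1 between them on the minus strand. The 3' end of Erbb2 overlaps that of Mien1 by 9 bases, and the strand setting of the counting is not given, so reads at that end cannot be assigned with certainty. Epgn, Ereg, Areg and Btc lie in that order on chromosome 5, from base 91027464 to base 91402994. Egfr lies elsewhere on chromosome 11, Erbb3 on chromosome 10 and Tgfa on chromosome 6.

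Promoter sequences (250 bases before to 50 after the gene start, RefSeq, GRCm38.p6) were at hand for 6 of the 10 members, Egfr, Erbb2, Areg, Btc, Tgfa and Epgn. Those of Areg and Epgn are shown as the members with a match to a searched motif, in capitals, and that of Erbb2 as the receptor of the Grb7 locus, which had no match. The Areg window is chr5:91139349-91139648, the Epgn window chr5:91027267-91027566 and the Erbb2 window chr11:98412234-98412533, all on the plus strand, set by the RefSeq gene start.
Areg: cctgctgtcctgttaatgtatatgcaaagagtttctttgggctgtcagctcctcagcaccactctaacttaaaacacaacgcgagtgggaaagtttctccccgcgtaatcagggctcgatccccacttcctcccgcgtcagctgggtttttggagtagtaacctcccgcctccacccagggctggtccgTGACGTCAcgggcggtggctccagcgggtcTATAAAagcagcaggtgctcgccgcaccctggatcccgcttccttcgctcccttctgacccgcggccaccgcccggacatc
Epgn: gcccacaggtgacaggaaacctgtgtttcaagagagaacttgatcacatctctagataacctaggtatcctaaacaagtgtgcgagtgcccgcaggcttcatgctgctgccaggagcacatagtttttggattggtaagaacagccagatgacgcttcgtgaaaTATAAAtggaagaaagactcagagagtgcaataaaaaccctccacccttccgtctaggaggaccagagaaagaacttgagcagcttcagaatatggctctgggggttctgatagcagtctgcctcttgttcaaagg
Erbb2: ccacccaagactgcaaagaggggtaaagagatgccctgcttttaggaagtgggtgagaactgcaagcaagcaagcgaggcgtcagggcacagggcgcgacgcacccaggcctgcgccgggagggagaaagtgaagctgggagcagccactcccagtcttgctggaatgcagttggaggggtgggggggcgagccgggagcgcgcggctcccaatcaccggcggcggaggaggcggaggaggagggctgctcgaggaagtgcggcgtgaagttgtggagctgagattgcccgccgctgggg
The motifs searched on both strands were the cyclic AMP response element TGACGTCA, the TATA box TATAAA, the AP-1 site TGANTCA, the STAT site TTCNNNGAA, the E-box CACGTG and the ETS site CCGGAAGT, and no matches overlapped. Areg held TGACGTCA, which starts 61 bases before the gene start, and TATAAA, which starts 31 bases before it. Epgn held TATAAA 86 bases before the start. Of 32851 promoters of this length, 1.79% held TGACGTCA, 13.6% TATAAA, 7.81% TGANTCA, 8.30% TTCNNNGAA, 7.15% CACGTG and 3.89% CCGGAAGT. These matches are letters in a window and were not tested for use.

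Counts were scaled to CPM by TMM, and since 3' reads do not scale with transcript length, CPM may be compared between genes as a rough level. Of the 10 members, 9 had enough counts to be tested, each with at least 12 counts in every tumour, and Epgn did not. Grb7 was the most abundant, at 152 CPM over the 12 tumours, above 92.6% of the tested genes. Hbegf followed at 145 CPM, and Grb7 was above Hbegf in 5 of 12 tumours, so their order is not settled. Btc had 55.7 CPM, Egfr 32.04 CPM, Erbb3 23.2 CPM and Erbb2 21.1 CPM, with Erbb3 above Erbb2 in 8 of 12 tumours. Tgfa (8.71 CPM), Areg (6.28 CPM) and Ereg (5.34 CPM) were the lowest, with Tgfa above Areg in 9 and Areg above Ereg in 8 of 12 tumours.

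Grb7 fell in the Alb-Cre+/+ STAT3f/f tumours, and the other 8 tested members did not pass the test. Erbb2 and Erbb3 had fold changes of a size close to that of Grb7, the 5 tested ligands had negative fold changes, and Egfr had a positive one. Over all genes, 96 of 12856 (0.747%) were called lower and 287 (2.23%) higher by the quasi-likelihood test of edgeR, at a Benjamini-Hochberg adjusted p under 0.05, and 2.98% in either direction. Of the 9 tested members 1 was called lower and 0 higher. At an unadjusted p under 0.05 there were 6 members, all with a negative fold change, where 2490 of all tested genes (19.4%) had such a p in either direction. DESeq2 called 2 members lower and 0 higher, and over the 12856 genes it called 288 lower and 618 higher. The median log2 fold change was -0.50 over the 9 members and -0.00 over all genes tested, a description with no test of the list. No member had all 6 Alb-Cre+/+ STAT3f/f tumours below every WT tumour, as 83 genes (0.646%) did.

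Grb7, an adaptor that binds phosphorylated ErbB receptors through its SH2 domain, had a lowest, median and highest value of 90.9, 116 and 159 CPM in Alb-Cre+/+ STAT3f/f tumours, against 135, 188 and 229 CPM in WT tumours. Of the Alb-Cre+/+ STAT3f/f tumours, 4 of 6 lay below every WT tumour, and the groups overlapped through tumours 4 and 5 of the Alb-Cre+/+ STAT3f/f group. Grb7 averaged 122 ± 24.0 CPM in Alb-Cre+/+ STAT3f/f tumours and 182 ± 37.8 CPM in WT tumours (SD, n = 6 each). It fell by 0.58 ± 0.14 on the log2 scale (SE; 0.67-fold), with an adjusted p of 0.0352 (edgeR, Benjamini-Hochberg). The fold held in every setting tried, from -0.67 to -0.47, but the call did not. It was lost in 8 of 12 fits without 1 tumour, namely Alb-Cre+/+ STAT3f/f 1, 2, 3 or 6 or WT 1, 2, 3 or 4 (edgeR Benjamini-Hochberg adjusted p 0.0559 to 0.0900).

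In bulk tissue, fewer cells of a type and less RNA per cell cannot be told apart, and the levels of some marker lists differed between the hosts. The 20 acinar genes, mostly digestive enzymes of the normal pancreas, took 0.816 to 43.4% of counts in Alb-Cre+/+ STAT3f/f tumours and 0.580 to 22.4% in WT tumours, and passed 15% in 4 Alb-Cre+/+ STAT3f/f tumours (1, 2, 3 and 4) and in WT 5. Of the 20, none passed the edgeR test after Benjamini-Hochberg adjustment, 7 had an unadjusted p under 0.05, all higher, and DESeq2 called 0. The 12 markers of ductal and tumour epithelium summed to 2857 to 3573 CPM in Alb-Cre+/+ STAT3f/f tumours and 3731 to 4483 CPM in WT tumours, with no overlap. Of 11 tested, 2 fell, Sox9 (log2 fold change -0.49) and Krt7 (-0.59), and 0 rose. DESeq2 called 3 lower, these 2 and Cdh1. Macrophage and monocyte markers summed to 1584 to 2451 CPM in Alb-Cre+/+ STAT3f/f and 1026 to 1575 CPM in WT tumours, also with no overlap. Of 9 tested, 7 rose, and DESeq2 called 8 higher. Fibroblast markers summed to 4399 to 7625 CPM in Alb-Cre+/+ STAT3f/f and 3338 to 6253 CPM in WT tumours, with 1 of 9 called higher by edgeR and 2 by DESeq2. Among basal keratinocyte markers Krt5 was at 0 in all tumours, and Krt14, the 1 tested, fell (log2 fold change -1.62, adjusted p = 0.0473 by edgeR with Benjamini-Hochberg adjustment). The other 6 of the 7 listed were not tested. Krt17 had 37 counts in all Alb-Cre+/+ STAT3f/f and 7 in all WT tumours, Krt6a 4 and 2, and Krt15 13 and 14. Trp63 and Dsg3 had 0 and 3 each. T cell markers summed to 31.1 to 66.8 CPM in Alb-Cre+/+ STAT3f/f and 11.8 to 32.5 CPM in WT tumours, with 0 of 5 called by edgeR, 5 higher at an unadjusted p under 0.05 and 3 called higher by DESeq2. Of the endothelium, neutrophil, islet and hepatocyte markers, edgeR called 0, and the summed ranges of each list overlapped between the hosts. DESeq2 called 1 of these genes higher, the islet gene Sst. The part of any of these lists in the results for the members was not tested, beyond the fits given next.

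Beside these values, Grb7 had a log2 fold change of -0.47 ± 0.16 with the acinar score as a covariate (adjusted p = 0.179, edgeR with Benjamini-Hochberg adjustment) and -0.58 ± 0.17 without the 5 tumours over 15% (adjusted p = 0.144). With the epithelial marker score as a covariate, a choice made after seeing the data, it was -0.58 ± 0.18 (adjusted p = 0.196). In the tumours under 15%, Grb7 had 141 and 116 CPM in Alb-Cre+/+ STAT3f/f tumours 5 and 6, against 146 to 229 CPM in WT tumours 1, 2, 3, 4 and 6.

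Erbb2, the ligandless receptor, had a lowest, median and highest value of 14.6, 17.0 and 21.7 CPM in Alb-Cre+/+ STAT3f/f tumours, against 17.7, 23.3 and 32.5 CPM in WT tumours. The groups overlapped: 3 Alb-Cre+/+ STAT3f/f tumours were below the whole WT range, whose lowest tumour was WT 5. The log2 fold change of Erbb2 was -0.50 ± 0.16 (adjusted p = 0.0986, edgeR with Benjamini-Hochberg adjustment), and -0.58 with an adjusted p of 0.0482 without WT 5. The other 11 of 12 fits without 1 tumour did not call Erbb2 (adjusted p up to 0.214 by the same test), and 0 of 9 other settings did.

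Erbb3, the receptor that recruits phosphoinositide 3-kinase, had 13.9, 18.6 and 25.5 CPM as lowest, median and highest value in Alb-Cre+/+ STAT3f/f tumours, against 17.5, 29.2 and 34.5 CPM in WT tumours. WT 5 was again the lowest WT tumour, and the other 5 WT tumours lay above every Alb-Cre+/+ STAT3f/f tumour. Its log2 fold change was -0.57 ± 0.18 (adjusted p = 0.0791, edgeR with Benjamini-Hochberg adjustment). Without WT 5 it was -0.68 with an adjusted p of 0.0264, and DESeq2 with all tumours gave -0.58 with an adjusted p of 0.0325. The other 11 of 12 fits without 1 tumour did not call Erbb3 (edgeR Benjamini-Hochberg adjusted p up to 0.166). Of 9 other settings only 1, DESeq2, called it.

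Egfr, the receptor of the EGF-type ligands, had 23.7, 32.3 and 44.8 CPM as lowest, median and highest value in Alb-Cre+/+ STAT3f/f tumours, against 23.1, 30.5 and 35.5 CPM in WT tumours. Tumours 1 and 3 of the Alb-Cre+/+ STAT3f/f group lay above every WT tumour, and the other 4 lay within the WT range. The log2 fold change of Egfr was 0.16 ± 0.15 (95% interval -0.14 to 0.47; adjusted p = 0.597, edgeR with Benjamini-Hochberg adjustment), and its sign turned, to -0.19, without the 5 tumours over 15% acinar counts. An acinar covariate gave 0.04, and without Alb-Cre+/+ STAT3f/f 1 or WT 2 it was 0.10, and without Alb-Cre+/+ STAT3f/f 3 it was 0.07. Within a tumour, where scaling cancels, Egfr over Erbb3 was 1.12 to 3.22 in Alb-Cre+/+ STAT3f/f and 0.786 to 1.79 in WT tumours. Egfr over Erbb2 was 1.33 to 2.86 and above 1 in 6 of 6 Alb-Cre+/+ STAT3f/f tumours, and 0.754 to 1.77 and above 1 in 4 of 6 WT tumours. These ratios were chosen after the values were seen and were not tested. Erbb4, the remaining receptor of the family, was not tested, with 11 counts in all Alb-Cre+/+ STAT3f/f and 27 in all WT tumours, of which WT 1 held 14.

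**Figure D1:**
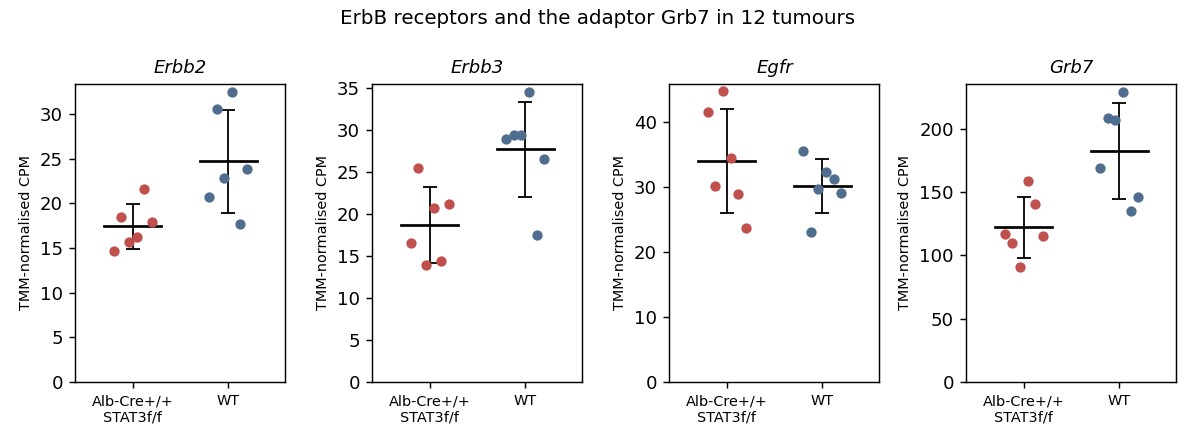
TMM-normalised CPM of Erbb2, Erbb3, Egfr and Grb7, with 1 point per tumour (6 Alb-Cre+/+ STAT3f/f left, 6 WT right), the mean as a bar and the SD as whiskers. Grb7 ran from 90.9 to 159 CPM in Alb-Cre+/+ STAT3f/f and from 135 to 229 CPM in WT tumours, and the Egfr points of 2 Alb-Cre+/+ STAT3f/f tumours, at 41.6 and 44.8 CPM, lie above the highest WT tumour at 35.5 CPM.

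Among the ligands, Hbegf encodes heparin-binding EGF, which macrophages and epithelium make. Hbegf had 102, 135 and 155 CPM as lowest, median and highest value in Alb-Cre+/+ STAT3f/f tumours, against 119, 154 and 214 CPM in WT tumours. Its groups overlapped for 4 of 6 Alb-Cre+/+ STAT3f/f tumours, and the log2 fold change was -0.29 ± 0.13 (adjusted p = 0.231, edgeR with Benjamini-Hochberg adjustment). Without the 5 tumours over 15% acinar counts it was -0.26, and with the epithelial score as a covariate -0.06.

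Btc encodes betacellulin, a ligand of EGFR and ERBB4. Btc had 28.3, 47.6 and 64.7 CPM as lowest, median and highest value in Alb-Cre+/+ STAT3f/f tumours, against 51.4, 63.6 and 79.8 CPM in WT tumours. Of the Alb-Cre+/+ STAT3f/f tumours 4 of 6 lay below every WT tumour, while tumours 3 and 5 lay among them. The log2 fold change of Btc was -0.39 ± 0.16 (adjusted p = 0.199, edgeR with Benjamini-Hochberg adjustment), and -0.11 without the 5 tumours over 15% acinar counts.

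Ereg encodes epiregulin, a ligand of EGFR and ERBB4, and had the most negative fold change of the 9 tested members in this fit, on 141 counts in all Alb-Cre+/+ STAT3f/f and 325 in all WT tumours. It had 2.57, 3.59 and 5.45 CPM as lowest, median and highest value in Alb-Cre+/+ STAT3f/f tumours, against 3.33, 6.57 and 12.1 CPM in WT tumours. Its groups overlapped, and the highest value was in WT 1. The log2 fold change was -0.89 ± 0.30 (adjusted p = 0.112, edgeR with Benjamini-Hochberg adjustment), and -0.65 without WT 1.

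Areg encodes amphiregulin, an EGFR ligand of injured and inflamed epithelium. It had 2.41, 5.07 and 7.57 CPM as lowest, median and highest value in Alb-Cre+/+ STAT3f/f tumours, against 2.37, 7.74 and 14.7 CPM in WT tumours. The WT tumours held both the lowest and the highest values, with WT 2 and WT 4 among the lowest of all tumours. Its log2 fold change was -0.66 ± 0.43 (95% interval -1.50 to 0.17; adjusted p = 0.419, edgeR with Benjamini-Hochberg adjustment), and -0.36 without WT 1. It was -1.12 with the acinar score as a covariate and -1.43 without the 5 tumours over 15% acinar counts, and no setting called it.

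Tgfa encodes transforming growth factor alpha, an EGFR ligand that epithelial tumours often make. It had 4.87, 6.85 and 12.8 CPM as lowest, median and highest value in Alb-Cre+/+ STAT3f/f tumours, against 6.99, 9.01 and 13.3 CPM in WT tumours. Alb-Cre+/+ STAT3f/f 4 was among the highest of all tumours, and the log2 fold change was -0.32 ± 0.25 (95% interval -0.81 to 0.17; adjusted p = 0.513, edgeR with Benjamini-Hochberg adjustment). The fold change was -0.53 without Alb-Cre+/+ STAT3f/f 4 and -0.20 without WT 1. It was -0.61 with the acinar score as a covariate, -0.63 with the epithelial score and -0.71 without the 5 tumours over 15% acinar counts, and no setting called it. Epgn encodes epigen, a low-affinity EGFR ligand. It had 11 counts in all Alb-Cre+/+ STAT3f/f tumours, of which tumour 3 held 9, and 5 in all WT tumours. The ratio was 2.03 (95% exact binomial interval 0.650 to 7.45, counting error only), so no difference was detectable at this depth.

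**Figure D2:**
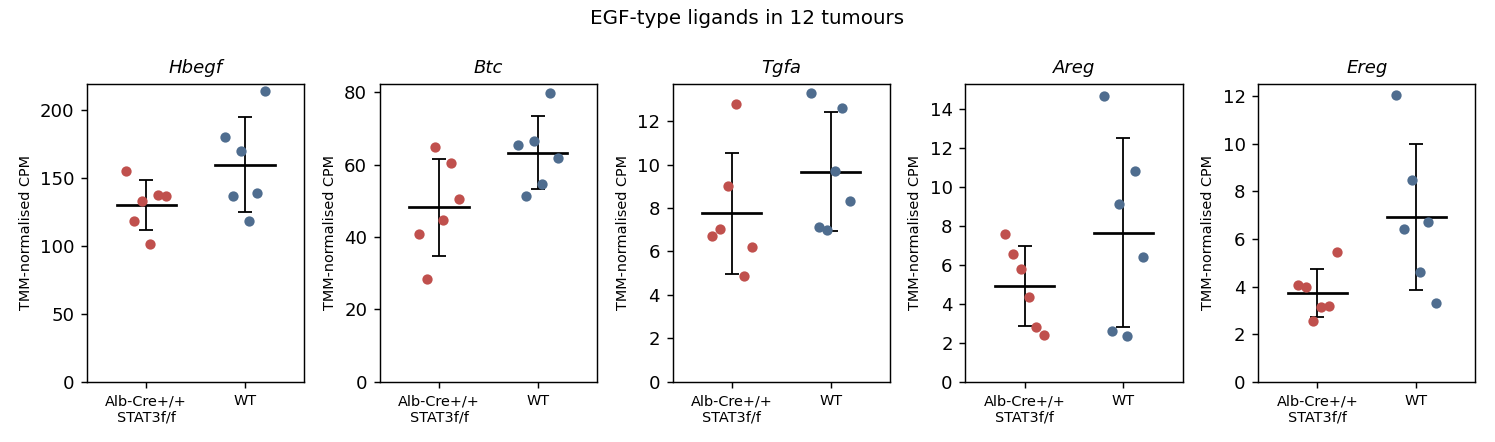
TMM-normalised CPM of the 5 tested ligands, with 1 point per tumour (6 Alb-Cre+/+ STAT3f/f left, 6 WT right), the mean as a bar and the SD as whiskers. Each ligand's groups overlap. Relative to their means, Areg and Ereg spread most in WT tumours (SD 63.0% and 44.4% of the mean), up to 14.7 and 12.1 CPM.

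**Figure D3:**
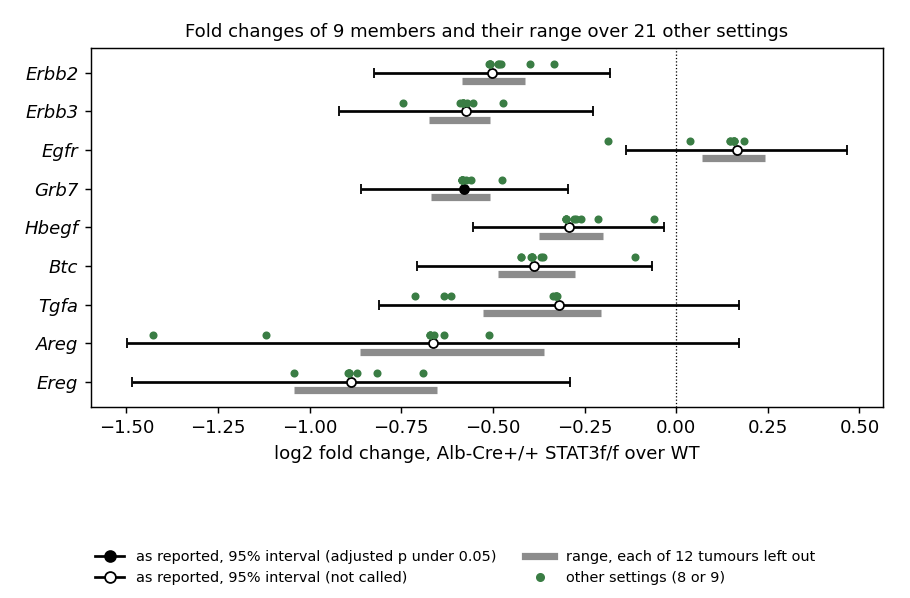
Log2 fold changes (Alb-Cre+/+ STAT3f/f over WT) of the 9 tested members with an approximate 95% interval, the range over 12 fits without 1 tumour (grey bar) and the other settings (green points). Grb7 is the only filled point (called), and Egfr is the only member with a setting on the other side of 0, at -0.19.

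Of 36 member pairs, 1 passed adjustment by Pearson r (Erbb2 and Grb7) and 0 by both r and rho. The permutations over 12 or 10 tumours ignored genotype. Erbb2, Erbb3 and Grb7 all had negative fold changes, so their pooled values include the difference between the hosts. Over 12 tumours, log2 CPM of Erbb2 and Grb7 had Pearson r = 0.81 (permutation p = 0.00134, adjusted 0.0482 over 36 member pairs) and Spearman rho = 0.74 (permutation p = 0.00770, adjusted 0.0924). Within Alb-Cre+/+ STAT3f/f tumours r was 0.32 (exact permutation p = 0.556, n = 6) and within WT tumours 0.81 (exact permutation p = 0.0667, n = 6). Without WT 2 and WT 4 it was 0.64 over 10 tumours (permutation p = 0.0485). Erbb3 and Grb7 had r = 0.75 (permutation p = 0.00578) and rho = 0.78 (permutation p = 0.00428), and Erbb2 and Erbb3 r = 0.73 (permutation p = 0.00776) and rho = 0.79 (permutation p = 0.00339), each pair with an adjusted p of 0.0931 for r and 0.0770 for rho. Within WT tumours these pairs had r = 0.84 (exact permutation p = 0.00278, n = 6) and 0.79 (exact permutation p = 0.0306, n = 6), and within Alb-Cre+/+ STAT3f/f tumours 0.17 (exact permutation p = 0.736, n = 6) and 0.05 (exact permutation p = 0.949, n = 6). With 6 tumours, these lower values do not exclude a relation within the Alb-Cre+/+ STAT3f/f tumours, and their difference from the WT values was not tested. The p-values within a genotype are unadjusted. Within WT tumours Erbb2 also had negative values, r = -0.96 with Btc (exact permutation p = 0.00833) and -0.93 with Areg (exact permutation p = 0.0125). Within Alb-Cre+/+ STAT3f/f tumours these were 0.10 (exact permutation p = 0.856) and -0.65 (exact permutation p = 0.161). Erbb3 and Btc had r = -0.82 in Alb-Cre+/+ STAT3f/f (exact permutation p = 0.0458) and -0.81 in WT tumours (exact permutation p = 0.0556). These negative values were picked for their size from 36 pairs within each host. Without the 2 tumours farthest from the median, r was 0.74 (permutation p = 0.0175) for Erbb3 and Grb7 and 0.58 (permutation p = 0.0846) for Erbb2 and Erbb3. Grb7 over Erbb2 was 5.81 to 9.79 in Alb-Cre+/+ STAT3f/f and 6.14 to 9.07 in WT tumours.

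Erbb2 was lower where the acinar share was higher. With the log2 acinar share it had r = -0.74 (permutation p = 0.00620, adjusted 0.0558 over 9 members) and rho = -0.83 (permutation p = 0.00162, adjusted 0.0146). Within Alb-Cre+/+ STAT3f/f tumours r was -0.79 (exact permutation p = 0.0639, n = 6) and within WT tumours -0.61 (exact permutation p = 0.203, n = 6), so the sign was shared. Without WT 6 and Alb-Cre+/+ STAT3f/f 5, the tumours farthest from the median share, r was -0.93 (permutation p = 0.00018). Grb7 had r = -0.55 (permutation p = 0.0666, adjusted 0.285) and rho = -0.65 (permutation p = 0.0256, adjusted 0.115) with the acinar share, and r = -0.89 (permutation p = 0.00073) without those 2 tumours. Erbb3 had r = -0.33 (permutation p = 0.294, adjusted 0.331) and rho = -0.49 (permutation p = 0.111, adjusted 0.201), and r = -0.81 (permutation p = 0.00628) without them. The 2 tumours left out had the lowest shares, 0.580 and 0.816%. Of those kept, Alb-Cre+/+ STAT3f/f tumours had 13.3 to 43.4%, and WT tumours 2.33 to 9.67% apart from WT 5 at 22.4%. The share thus nearly followed genotype among those kept. The pooled permutations ignored genotype, so the pooled values of Erbb2, Grb7 and Erbb3 include the difference between the hosts. Within Alb-Cre+/+ STAT3f/f and within WT tumours r was -0.46 (exact permutation p = 0.385, n = 6) and -0.22 (exact permutation p = 0.685, n = 6) for Grb7, and 0.42 (exact permutation p = 0.463, n = 6) and -0.55 (exact permutation p = 0.272, n = 6) for Erbb3. Egfr went the other way, with r = 0.48 (permutation p = 0.117, adjusted 0.285) and rho = 0.59 (permutation p = 0.0461, adjusted 0.138). For the ligands r was 0.34 for Areg, 0.34 for Tgfa, -0.02 for Ereg, -0.35 for Btc and -0.47 for Hbegf. None of the 9 members passed adjustment for r with this share, and Erbb2 alone passed it for rho. The genotype difference of Erbb2 was -0.33 with the acinar score as a covariate and -0.40 without the 5 tumours over 15% (log2 fold change).

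**Figure D4:**
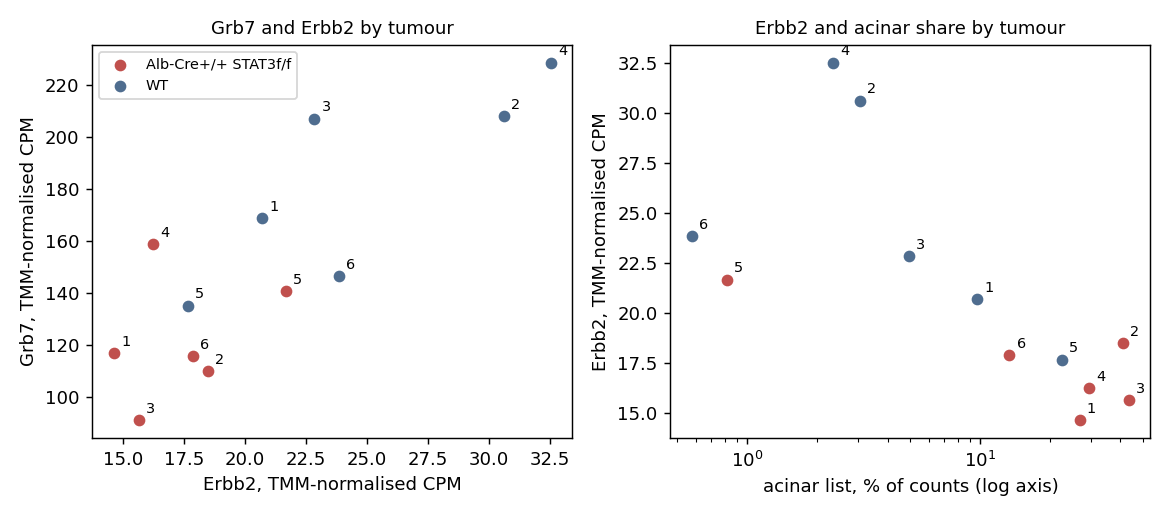
Left, Grb7 against Erbb2 (both in TMM-normalised CPM); right, Erbb2 against the share of counts in 20 acinar genes (percent, log axis), with 1 point per tumour labelled by its number. Grb7 and Erbb2 rise together over the 12 tumours (r = 0.81, both hosts pooled), and the tumours over 15% acinar counts all lie at 18.5 CPM of Erbb2 or below.

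The pattern over tumours was most like that of other genes as follows, by Pearson r of log2 CPM over 12 tumours among 10273 genes of at least 5 CPM, a description of the highest of many values. For Grb7 these were Golm1 (r = 0.957) and Pex26 (r = 0.947), for Erbb2 Pcsk6 (r = 0.943) and Dio3os (r = 0.918), and for Erbb3 Card10 (r = 0.919) and Cep170b (r = 0.902). For Egfr, Kctd20 (r = 0.914) is given. Among the ligands, Ereg was most like Phlda1 (r = 0.948) and Slc2a1 (r = 0.938), Hbegf like Cdc42bpb (r = 0.943) and Scaf8 (r = 0.894), and Btc like Cbx2 (r = 0.910) and Kat6b (r = 0.870). Areg was most like Clasp1 (r = 0.906) and Elp4 (r = 0.883), and Tgfa like Arid1b (r = 0.960) and Hist1h2bc (r = 0.887).

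Of the genes around Erbb2 and Grb7 on chromosome 11, 7 of 12 were tested, 1 rose, 0 fell and 6 did not pass, and at an unadjusted p under 0.05 there were 1 higher and 2 lower. The riser was Ikzf3, a lymphocyte transcription factor that is the next gene after Grb7, at 6.20 ± 3.55 CPM in Alb-Cre+/+ STAT3f/f and 2.19 ± 0.661 CPM in WT tumours (SD, n = 6 each; log2 fold change 1.48 ± 0.36, adjusted p = 0.0267, edgeR with Benjamini-Hochberg adjustment). Its call was lost in 6 of 12 fits without 1 tumour, namely Alb-Cre+/+ STAT3f/f 1 or 2 or WT 1, 2, 3 or 6. Other settings that lost it include the acinar or epithelial score as a covariate and the fit without the tumours over 15% acinar counts, where the log2 fold change was 0.76. The summed T cell markers given above were also higher in most Alb-Cre+/+ STAT3f/f tumours, and their part in the Ikzf3 result was not tested. Mien1, between Erbb2 and Grb7, averaged 50.3 ± 9.60 CPM in Alb-Cre+/+ STAT3f/f and 49.99 ± 9.78 CPM in WT tumours (SD, n = 6 each). The 2 lower at an unadjusted p under 0.05 were Ppp1r1b, with a log2 fold change of -0.88 ± 0.30 and 5 of 6 Alb-Cre+/+ STAT3f/f tumours below every WT tumour, and Cdk12, with -0.26 ± 0.12 and 4 of 6. The log2 fold change of Med1 was -0.03 ± 0.09, that of Stard3 -0.04 ± 0.12 and that of Pgap3 0.22 ± 0.31. Differences between these genes and Erbb2 or Grb7 were not tested. Beside the ligand cluster on chromosome 5, Parm1 had a log2 fold change of -0.29 ± 0.12 and Rassf6 of -0.09 ± 0.18, and 0 of 2 tested genes passed edgeR's test, 1 with an unadjusted p under 0.05 and 0 by DESeq2.

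Beyond the 10 members, the other ErbB receptor and ligand genes had 3 of 6 tested and 0 called by edgeR, 1 at an unadjusted p under 0.05 and 0 by DESeq2. That 1 was Egf, the ligand that names the family, at 5.56 ± 5.06 CPM in Alb-Cre+/+ STAT3f/f and 1.10 ± 0.707 CPM in WT tumours (SD, n = 6 each). Egf had 0 counts in Alb-Cre+/+ STAT3f/f 5. Its log2 fold change was 2.27 ± 0.80 (adjusted p = 0.136, edgeR with Benjamini-Hochberg adjustment), and it turned to -0.43 without the 5 tumours over 15% acinar counts. Without Alb-Cre+/+ STAT3f/f 5 the adjusted p was 0.0128 by the same test. Nrg1, a ligand of ERBB3 and ERBB4, had a log2 fold change of 0.33 ± 0.46.

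No gene of ligand shedding passed the test. All 7 were tested, of which 0 passed by edgeR, 0 had an unadjusted p under 0.05 and DESeq2 called 0, with a median log2 fold change of -0.00. Adam17, the main protease of ligand release, averaged 98.1 ± 12.5 CPM in Alb-Cre+/+ STAT3f/f and 98.2 ± 9.07 CPM in WT tumours (SD, n = 6 each). Rhbdf2, which carries ADAM17 to the cell surface, had a log2 fold change of 0.39 ± 0.24 and Adam9 of 0.17 ± 0.27, and both turned negative without the 5 tumours over 15% acinar counts.

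Among 25 adaptors and downstream kinases, 1 rose, 0 fell and 24 did not pass, with a median log2 fold change of -0.02. At an unadjusted p under 0.05 there were 3 higher and 0 lower, and DESeq2 called 2 higher, Pik3r1 and Grb10, an adaptor related to Grb7 that was named after its values were seen (log2 fold change 0.83 ± 0.29, adjusted p = 0.126 by edgeR with Benjamini-Hochberg adjustment). The riser was Pik3r1, the regulatory subunit of phosphoinositide 3-kinase that binds ERBB3. Pik3r1 lay at 62.2 to 112 CPM in Alb-Cre+/+ STAT3f/f tumours, against 37.8 to 52.8 CPM in WT tumours, with no overlap. Ikzf3, given above, was separated upward in this way too, and the share of all genes so separated was not counted. The log2 fold change of Pik3r1 was 0.80 ± 0.14 (adjusted p = 0.00508, edgeR with Benjamini-Hochberg adjustment), and it was called in all 12 fits without 1 tumour. Without the 5 tumours over 15% acinar counts it was 0.60 (adjusted p = 0.0902, edgeR with Benjamini-Hochberg adjustment), and with the epithelial score as a covariate 0.68 (adjusted p = 0.106).

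Of 18 negative regulators of the pathway, 17 were tested and 0 passed edgeR's test, while 1 was higher and 3 lower at an unadjusted p under 0.05 and DESeq2 called 3 lower (Lrig3, Socs5 and Dusp4). Lrig3, a membrane protein of a family that includes an inhibitor of ErbB receptors, averaged 13.1 ± 1.04 CPM in Alb-Cre+/+ STAT3f/f and 18.6 ± 2.06 CPM in WT tumours (SD, n = 6 each). All 6 Alb-Cre+/+ STAT3f/f tumours lay below every WT tumour, and the log2 fold change was -0.50 ± 0.14 (adjusted p = 0.0629, edgeR with Benjamini-Hochberg adjustment). Dusp4, a phosphatase of ERK that ERK itself induces, had a log2 fold change of -0.81 ± 0.23 (adjusted p = 0.0537, edgeR with Benjamini-Hochberg adjustment), with 5 of 6 Alb-Cre+/+ STAT3f/f tumours below every WT tumour.

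Of 12 genes that ERK signalling is known to induce, 11 were tested, 1 fell, 0 rose and 10 did not pass, with a median log2 fold change of -0.15. The one that fell was Egr1, an immediate early transcription factor, at 53.0 ± 9.68 CPM in Alb-Cre+/+ STAT3f/f and 106 ± 41.4 CPM in WT tumours (SD, n = 6 each). Egr1 had a log2 fold change of -1.004 ± 0.234 (adjusted p = 0.0361, edgeR with Benjamini-Hochberg adjustment), with 4 of 6 Alb-Cre+/+ STAT3f/f tumours below every WT tumour. Its call was lost without Alb-Cre+/+ STAT3f/f 1, 3, 4 or 6 or WT 1 or 2, and in the fits with no low count filter, with an acinar or epithelial covariate or without acinar-rich tumours, while its fold change stayed between -1.14 and -0.85. DESeq2 called 3 lower, Phlda1, Ier3 and Egr1.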

How the data were processed

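The authors deposited raw counts, as whole numbers for each gene symbol; STAR and mm10 are named per the submitters' processing notes, and versions, counting tool, annotation, strand setting and molecular identifiers are not given in the labels or notes used. Per the labels' protocols, libraries were QuantSeq 3' mRNA-Seq FWD. Of 24982 entries, 26 with a number in place of a symbol (0.0690 to 0.166% of counts) were left out. All 12 libraries were used (5691707 to 8085609 counts), and none of the pairs within a genotype looked like 1 library deposited again (chi-square per gene at least 12.6). In the descriptions, the leading number of each Alb-Cre+/+ STAT3f/f tumour is below that of each WT tumour, so an order they may stand for cannot be told apart from genotype.

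In R 4.3.3 with edgeR 4.0.16, filterByExpr (minimum count 10, minimum total 15, proportion 0.7) kept 12856 genes. Libraries were scaled by TMM (factors 0.578 to 1.29), and hosts were compared by the robust two-sided quasi-likelihood test with Benjamini-Hochberg adjustment over all tested genes at 0.05. Intervals are 95%, and those of summed counts cover counting error only. The SE of an edgeR fold change was its absolute log2 value over the square root of the F statistic of the test. Intervals of fold changes used this SE with normal quantiles. They are approximate and somewhat narrow, since the limited degrees of freedom were ignored. Correlations used log2 CPM (prior count 2) and two-sided permutation tests, with 100000 draws over 12 or 10 tumours and all orders within 6. Alternatives were DESeq2 1.42.0, other filters and scalings, acinar and epithelial covariates, a replicate term, and fits without libraries. Scripts were tested on simulated data. Members, lists and tests were chosen with earlier results of these data known. Named genes were all members, from each pathway list up to 4 called genes or else the 2 with the smallest p, every tested neighbour, and the genes most like each member (mean of at least 5 CPM); other genes were named where a result turned on them, and 1 gene that the rule names is not reported here.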

Additional observations from a re-analysis of the deposited data

How the results depend on the processing

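Over 21 other settings, 185 of 186 member fold changes kept their sign; the exception was Egfr (-0.19 without the 5 libraries over 15% acinar counts). Grb7 lost its call with the acinar score (-0.47), without acinar-rich libraries (-0.58, fewer samples), with the epithelial score (-0.58, added after seeing the data) and with the replicate block (-0.57, adjusted p = 0.0659 by edgeR with Benjamini-Hochberg adjustment; Ikzf3 also lost its call with this block, at 1.38, adjusted p = 0.0961), and ran from -0.67 to -0.51 without 1 library each; the cause was not tested. Calls over all genes (287 higher, 96 lower) became 618 and 288 by DESeq2, 135 and 33 with the acinar score, 83 and 14 without acinar-rich libraries, 145 and 44 with the replicate block, 48 and 12 with the epithelial score, and 141 to 471 and 37 to 222 without 1 library each. Members called lower (1) became 2 by DESeq2, 0 with the acinar score, without acinar-rich libraries, with the replicate block and with the epithelial score, and 0 to 3 without 1 library, where 3 were called without WT 5. List genes called higher (2) became 1 under the stricter filter, the acinar score and the replicate block, 0 without acinar-rich libraries and with the epithelial score, and 1 to 3 without 1 library. List genes called lower (1) became 6 by DESeq2, 0 with the acinar score, without acinar-rich libraries and with the epithelial score, and 0 to 2 without 1 library.

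Signs turned without acinar-rich libraries for Egf (-0.43), Rhbdf2 (-0.11), Adam9 (-0.28), Med1 (0.014) and Stard3 (0.073), and with the acinar score for Med1 (0.0069) and Stard3 (0.018). Mien1, near 0, turned with no filter (-0.0025), DESeq2 size factors (-0.00027), DESeq2 (-0.00025), the acinar score (-0.055), acinar genes and Rn45s removed (-0.00041) and the epithelial score (-0.094). Without 1 library each, Adam9 ran from -0.048 to 0.327, Stard3 from -0.102 to 0.030 and Mien1 from -0.108 to 0.085. The correlation of Erbb2 and Grb7 missed the threshold within Alb-Cre+/+ STAT3f/f tumours (0.317) and within WT tumours (0.809), each with 6 tumours. That of Erbb3 and Grb7 passed it unadjusted without the 2 farthest tumours (0.740) and in WT tumours (0.837), as did Erbb2 and Erbb3 in WT tumours (0.793) and the acinar share and Erbb2 without the 2 farthest (-0.927). The stricter filter gave no value for Areg, Ereg and Tgfa. Replicate numbers did not pair the tumours: 2 of 6 same-numbered pairs correlated above 0.1 (r -0.51 to 0.13), and 1 of 6 Alb-Cre+/+ STAT3f/f tumours correlated best with its own number. Depth limits Epgn, Erbb4 and the other low genes most, and Areg, Ereg and Tgfa rest on few counts.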
